A study of Mus musculus with 30 samples.

Results

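Transcript levels of 36 genes of glycolysis and glucose use were examined in mouse B cell precursors arrested at successive steps by loss of E2A, EBF or RAG1. The genes were chosen by name as the glucose and lactate transporters, the enzymes and isoenzymes of glycolysis, the enzymes that regulate it, pyruvate dehydrogenase with its kinases, the pentose phosphate shunt and Hif1a. All 36 had a probe that passed the filter on dim signals, out of 12750 genes measured, and the brightest kept probe by mean log2 signal over the 6 array samples stood for each gene. Together the genes had 55 kept probes, and 15 of them had more than 1.

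The arrays held 2 samples of RAG1-/- pro-B cells, 2 of EBF-/- pre-pro-B cells and 2 of E2A-/- pre-pro-B cells, all on the C57BL/6 strain and untreated. The RAG1-/- cells came from femoral marrow, selected for the B cell marker B220, and were expanded for 10 d in Opti-MEM with the cytokines IL-7 and SCF. The EBF-/- and E2A-/- cells were kept over S17 stroma in Iscove's medium with IL-7, SCF and FLT3 ligand. Where RAG1-/- cells are compared, genotype, stage and culture conditions cannot be told apart. Chromatin immunoprecipitation sequencing (ChIP-seq) peak lists came from 23 libraries of RAG1-/-, EBF-/- and E2A-/- cells and of A12 cells, a T cell line without E2A. In E2A-/- and A12 cells the introduced protein was E47-ER, a tamoxifen-activated form of E2A, or bHLH-ER, which lacks the transactivation domains, given 1 µM tamoxifen for 1 or 6 h, and 1 mock immunoprecipitation served as control. Each ChIP-seq group was 1 library. The labels do not say whether replicate arrays came from separate animals or cultures, so p-values measure only the spread between these samples, which may be technical.

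Glycolysis turns glucose into pyruvate and, through lactate dehydrogenase, into lactate that leaves the cell. Several of its steps are run by isoenzymes from different genes, which differ in regulation, and proliferating lymphocytes are known for high glucose use. Hypoxia-inducible factor 1 and MYC are known activators of many genes of the pathway, whereas the factors missing here, E2A and EBF1, are needed for entry into the B lineage, and RAG1 cuts antigen receptor genes. The hypoxia factor binds around the letters ACGTG, and MYC and related factors bind CACGTG, which contains ACGTG on both strands.

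Promoter sequences were therefore read for the genes on which the results turn. They come from RefSeq, build GRCm38.p6, and run from 250 bases before to 50 bases after the annotated start, 5' to 3' on the strand of the gene. Of the 36 genes, 35 had 1 or more promoters in the table, 50 promoters in all, and Slc2a3 is named only. Shown are 3 pairs. The hexokinase genes Hk1 and Hk2 moved in opposite directions in all 3 comparisons, Pfkp and Pfkfb4 did so in both comparisons of RAG1-/- cells, and the lactate transporter Slc16a1 is set beside Ldha, which makes the lactate. Capitals mark every match, on either strand, to the hypoxia core ACGTG, to the MYC-type E-box CACGTG, to the E2A-type E-box CAGCTG, to its other form CAGGTG, to an EBF1-type palindrome or to the FOXO motif TGTTTAC.
Hk1, chr10:62340372-62340671, minus strand: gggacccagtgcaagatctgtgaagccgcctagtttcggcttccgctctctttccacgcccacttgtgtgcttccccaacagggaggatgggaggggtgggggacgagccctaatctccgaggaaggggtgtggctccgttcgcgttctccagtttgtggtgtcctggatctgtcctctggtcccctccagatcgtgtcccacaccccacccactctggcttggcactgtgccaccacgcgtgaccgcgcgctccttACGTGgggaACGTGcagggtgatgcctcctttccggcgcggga
Hk2, chr6:82774405-82774704, minus strand: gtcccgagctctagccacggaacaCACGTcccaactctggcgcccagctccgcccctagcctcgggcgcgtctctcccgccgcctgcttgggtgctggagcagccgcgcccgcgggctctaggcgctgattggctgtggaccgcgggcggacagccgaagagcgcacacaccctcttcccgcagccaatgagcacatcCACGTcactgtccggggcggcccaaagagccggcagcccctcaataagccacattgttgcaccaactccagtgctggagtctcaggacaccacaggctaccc
Pfkp, chr13:6648722-6649021, minus strand: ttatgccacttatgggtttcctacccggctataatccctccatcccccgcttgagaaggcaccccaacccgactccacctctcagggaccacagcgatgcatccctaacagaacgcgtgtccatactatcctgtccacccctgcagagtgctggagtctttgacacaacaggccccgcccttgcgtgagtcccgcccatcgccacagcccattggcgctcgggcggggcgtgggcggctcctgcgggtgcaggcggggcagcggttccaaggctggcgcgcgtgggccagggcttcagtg
Pfkfb4, chr9:108991652-108991951, plus strand: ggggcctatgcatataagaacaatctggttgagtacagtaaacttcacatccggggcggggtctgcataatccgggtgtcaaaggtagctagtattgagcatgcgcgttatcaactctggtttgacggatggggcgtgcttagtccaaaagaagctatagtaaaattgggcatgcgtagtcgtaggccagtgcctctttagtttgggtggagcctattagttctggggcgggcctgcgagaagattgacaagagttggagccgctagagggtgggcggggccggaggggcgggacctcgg
Slc16a1, chr3:104638414-104638713, plus strand: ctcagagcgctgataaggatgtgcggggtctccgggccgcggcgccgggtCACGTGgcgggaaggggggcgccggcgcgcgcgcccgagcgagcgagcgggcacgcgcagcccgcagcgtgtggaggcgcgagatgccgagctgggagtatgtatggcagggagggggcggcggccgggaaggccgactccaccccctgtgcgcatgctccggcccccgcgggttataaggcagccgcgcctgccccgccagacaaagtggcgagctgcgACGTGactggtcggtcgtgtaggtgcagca
Ldha, chr7:46845554-46845853, plus strand: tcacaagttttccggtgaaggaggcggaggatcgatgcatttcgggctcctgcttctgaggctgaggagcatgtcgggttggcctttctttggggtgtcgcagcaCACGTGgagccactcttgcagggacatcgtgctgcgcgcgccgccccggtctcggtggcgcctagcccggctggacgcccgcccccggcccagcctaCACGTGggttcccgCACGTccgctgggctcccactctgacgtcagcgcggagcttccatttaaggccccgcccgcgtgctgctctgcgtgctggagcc
In the Hk1 promoter 2 ACGTG matches lie after the start, at 7 and 16 bases from it, and Hk2 holds 2 before the start, at -226 and -52. Neither the Pfkp nor the Pfkfb4 promoter holds any of the 6 motifs. Slc16a1 has 1 CACGTG and Ldha has 2. Hk1 and Ldha each have a second RefSeq promoter, not shown, which holds 1 CAGGTG and no ACGTG.

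Over all 50 promoters, 46% held ACGTG, against 19.6% of the 32851 promoters in the table. By gene, 20 of 35 held it in at least 1 promoter, or 57.1%, against 21.8% of 27025 genes. CACGTG was found in 12% of the promoters of these genes, against 7.15% of all. Counted by promoter, the E-boxes bound by E2A were not commoner than elsewhere: CAGCTG stood in 14% against 16.3% of all promoters, and CAGGTG in 14% against 20.2%. Counted by gene, CAGCTG stood in 20% against 18.3% of all genes, and CAGGTG in 17.1% against 22.6%. None of the 50 held the EBF1-type palindrome, which 0.904% of all promoters held, and 1 promoter, of Aldoc, held TGTTTAC. A match describes letters in a window of 300 bases and is not a bound site. The background is every gene of the promoter table, not those measured on the arrays, and base composition was not matched. ACGTG matches inside CACGTG count for both motifs. The genes were chosen with earlier results of these data known, and no test was run on these shares. The bar plot of motif shares sets them side by side.

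**Figure D1:**
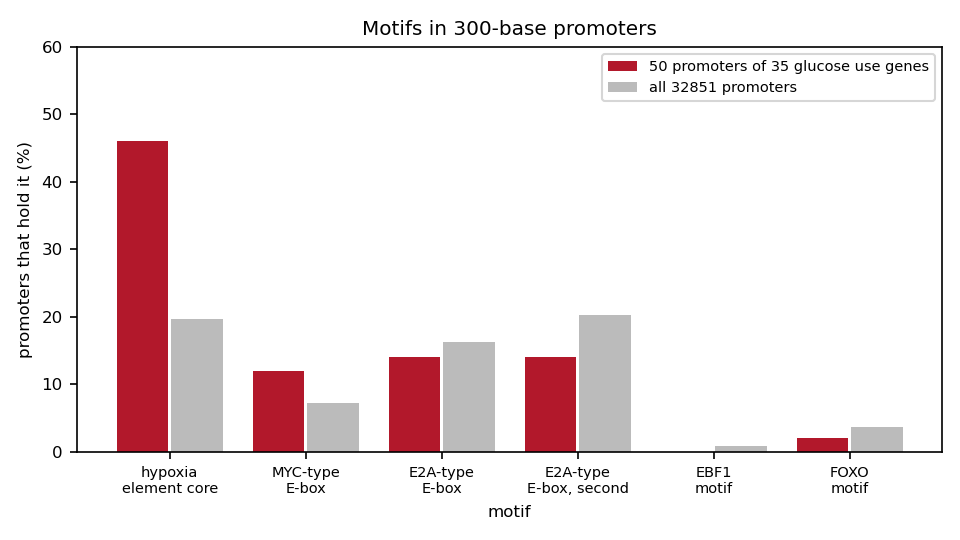
Share of promoters (%, vertical axis) that hold each of 6 motifs on either strand, for the 50 promoters of 35 glucose use genes (red) and all 32851 promoters of the table (grey). The hypoxia element core ACGTG stands at 46% against 19.6%, and the other motifs differ by less.

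Before the comparisons, each sample was read for markers of other cells. The B-lineage markers had a median log2 intensity of 16.62 and 16.27 in RAG1-/- cells, 6.14 and 5.99 in EBF-/- cells, and 11.24 and 6.00 in E2A-/- cells, so E2A-/- replicate 1 stood apart from replicate 2. That sample shared its array with RAG1-/- replicate 1. The summed myeloid markers, as log2 of the summed signal, reached 12.17 and 15.78 in RAG1-/- cells, 15.28 and 15.31 in EBF-/- cells, and 16.51 and 16.60 in E2A-/- cells. The sum was thus higher in RAG1-/- replicate 2 than in replicate 1, while the median myeloid marker was not (8.75 and 8.68). This median was 8.98 and 8.67 in EBF-/- cells and highest in E2A-/- cells, at 11.93 and 12.18. Of 7 mast cell markers 3 were measured, and their sum was 7.77 and 11.27 in RAG1-/- cells, 12.89 and 12.91 in EBF-/- cells, and 11.14 and 11.15 in E2A-/- cells. Of 8 stromal markers 2 were measured, with sums of 8.37 and 8.64 in RAG1-/- cells, 12.98 and 12.78 in EBF-/- cells, and 8.66 and 8.65 in E2A-/- cells. This sum, like that of the mast cell markers, was highest in EBF-/- cells. Markers of T and NK cells had medians of 6.75 and 6.67 in RAG1-/- cells, 11.97 and 12.32 in EBF-/- cells, and 7.39 and 8.28 in E2A-/- cells. Their part in the results below was not tested. In bulk RNA, fewer cells of a type and less RNA per cell cannot be told apart.

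Replicates of the 36 genes lay close together in EBF-/- cells, where 0 of 36 differed by more than 2-fold (4.65% of all genes did). In RAG1-/- cells 5 of 36 did, or 13.9% against 5% of all genes, and in E2A-/- cells 3 of 36, or 8.33% against 8.13%. In RAG1-/- cells replicate 2 was the higher by a median of 0.30 on the log2 scale, and the widest gap was 2.42, for Hk3. In E2A-/- cells the gaps were for genes near background, among them Pdk2 (-2.04, replicate 2 minus replicate 1) and Ldhb (1.71). The heat map of sample values shows every gene.

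**Figure D2:**
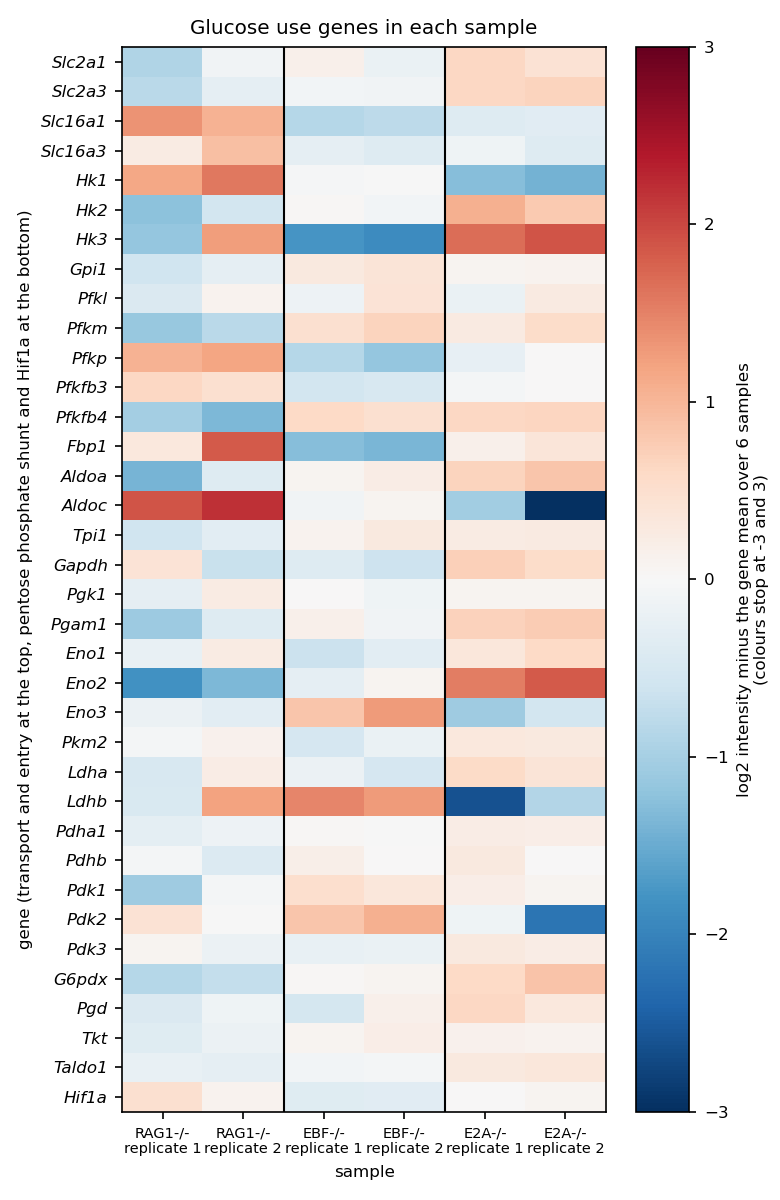
Normalized log2 intensity of each of the 36 genes (rows) in each of the 6 samples (columns), drawn as the difference from the mean of that gene over the samples, red above and blue below. Hk1, Slc16a1 and Pfkp are red in both RAG1-/- samples, Hk2, Eno2 and G6pdx are red in both E2A-/- samples, and Hk3 differs between the RAG1-/- replicates.

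Changes were fitted over all 12750 genes with limma, and a gene is called where its adjusted p is under 0.05. Of the 36 genes, 7 rose in RAG1-/- against EBF-/- cells (19.4%) and 11 fell (30.6%), where 21.2% of all genes rose and 22.6% fell, 43.9% in all. Against E2A-/- cells, 6 rose in RAG1-/- cells (16.7%) and 15 fell (41.7%), where 22.9% of all genes rose and 23.1% fell, 46% in all. Only 2 rose in EBF-/- against E2A-/- cells (5.56%) and 12 fell (33.3%), where 12.6% of all genes rose and 11.6% fell, 24.3% in all. The share that rose was thus near or under that of all genes in each comparison, and the share that fell was above it, least so in RAG1-/- against EBF-/- cells. Under 17 alternative settings, the share that fell was above that of all genes in 17 for RAG1-/- against E2A-/- cells, in 15 for RAG1-/- against EBF-/- cells and in 14 for EBF-/- against E2A-/- cells. The share that rose was above it in 4, 11 and 5 of them, so for the genes that rose the reading depends on the setting, above all in RAG1-/- against EBF-/- cells. For the genes that fell in EBF-/- against E2A-/- cells, some of the 14 settings had few calls left and a narrow margin.

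The median log2 change of the 36 genes was -0.26 in RAG1-/- against EBF-/- cells, -0.45 in RAG1-/- against E2A-/- cells and -0.44 in EBF-/- against E2A-/- cells, where the medians of all genes were 0.04, 0.03 and -0.01. Each group enters 2 of the comparisons, so these counts are not independent of one another. With 75th percentile scaling, 7 genes rose and 7 fell in RAG1-/- against EBF-/- cells (19.4% fell, against 21% of all genes), and 3 rose and 9 fell in EBF-/- against E2A-/- cells, and with median centring 8 rose and 8 fell in RAG1-/- against EBF-/- cells. In EBF-/- against E2A-/- cells, leaving out a sample moved the calls of all genes as well, so only shares are compared here. Without E2A-/- replicate 1 or EBF-/- replicate 2, the share that fell stayed above that of all genes only narrowly, with few of the 36 still called lower. Without RAG1-/- replicate 1 or 2 it stayed above by more. The RAG1-/- samples enter only through the shared spread. Without E2A-/- replicate 2 or EBF-/- replicate 1 the share that fell was under that of all genes. The share that rose was above that of all genes without E2A-/- replicate 1 or 2 or EBF-/- replicate 1. It was under that of all genes without EBF-/- replicate 2 or RAG1-/- replicate 1 or 2. In RAG1-/- against EBF-/- cells the share that rose was above that of all genes without EBF-/- replicate 1 or 2. The share that fell was above that of all genes without EBF-/- replicate 1 and under it without replicate 2. There, both shares were above those of all genes without RAG1-/- replicate 1. In RAG1-/- against E2A-/- cells, both shares were above those of all genes without E2A-/- replicate 1 or 2, that of the genes that rose only slightly. Without RAG1-/- replicate 2, the share that fell was above that of all genes against both EBF-/- and E2A-/- cells. The share that rose was then under that of all genes in both. Of the 36, 12 in RAG1-/- against EBF-/- cells had both samples above both of the other group (33.3%) and 18 had both below (50%), where 39.2% and 35.4% of all genes did. The same counts in RAG1-/- against E2A-/- cells were 10 and 23 genes (27.8% and 63.9%), where 38.1% and 35.9% of all genes did, and in EBF-/- against E2A-/- cells 7 and 23 (19.4% and 63.9%), where 34% and 34.4% did. Groups that do not overlap are thus common on these arrays, and the share of the 36 genes was above that background on the lower side in all 3 comparisons and under it on the higher side.

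The calls in EBF-/- against E2A-/- cells were the least stable, as 0 of the 14 passed under every alternative, against 7 of 18 and 11 of 21 in RAG1-/- against EBF-/- and against E2A-/- cells. There, leaving out any 1 of the 4 compared samples ended the call of Slc2a3, Slc16a1, Hk2, Pfkp, Pfkfb3, Eno1, Eno2, Pkm2, G6pdx and Taldo1, whose largest adjusted p over all alternatives lay between 0.141 for Hk2 and 0.671 for Pfkfb3. Those of Hk1 and Eno3 ended without EBF-/- replicate 2, at an adjusted p of 0.0575 and 0.0512, and those of Hk3 and Ldha ended in 3 of the 4.

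**Figure D3:**
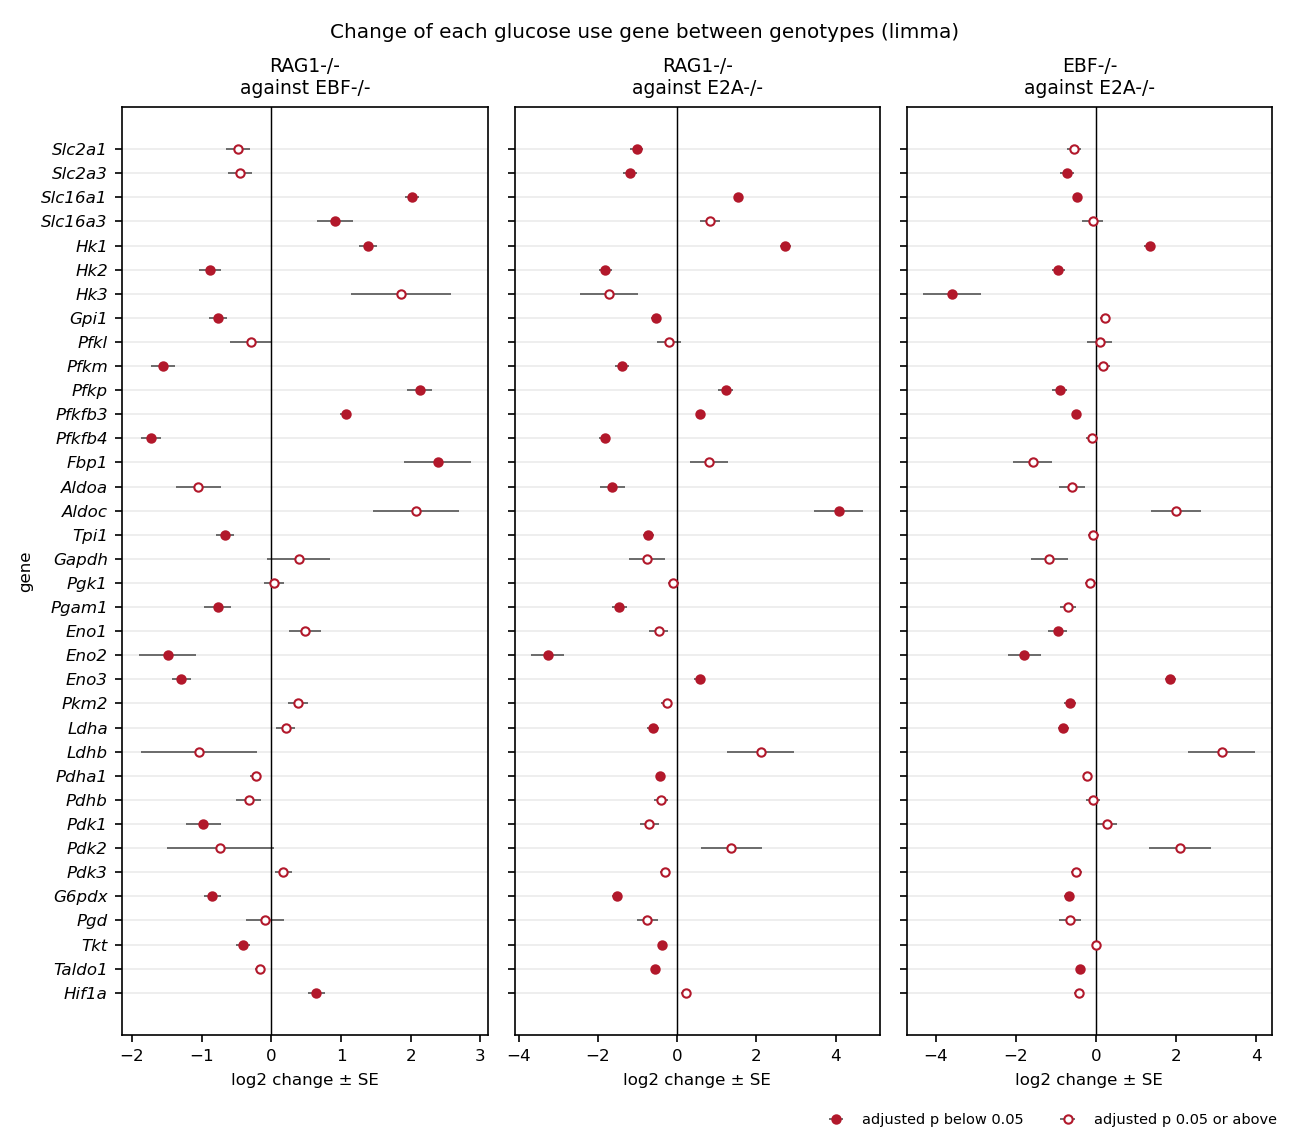
Log2 change with its standard error (horizontal axis) of each of the 36 genes in RAG1-/- against EBF-/-, RAG1-/- against E2A-/- and EBF-/- against E2A-/- cells, filled where the adjusted p is under 0.05. Hk1 lies right of 0 in all 3 panels, and Hk2 lies left of 0 in all 3.

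Glucose enters through Slc2a1 (GLUT1) and Slc2a3 (GLUT3). Slc2a1 read 11.27 and 12.08 on the log2 scale in RAG1-/- cells, 12.32 and 11.99 in EBF-/- cells, and 12.80 and 12.61 in E2A-/- cells. Slc2a3 read 10.05 and 10.58 in RAG1-/- cells, 10.77 and 10.76 in EBF-/- cells, and 11.47 and 11.52 in E2A-/- cells. Both were highest in both E2A-/- samples, and for Slc2a1 the RAG1-/- and EBF-/- samples overlapped. Slc2a1 fell by 1.02 ± 0.17 (SE, adjusted p = 0.0105, and 0.0564 without E2A-/- replicate 2) and Slc2a3 fell by 1.18 ± 0.18 (adjusted p = 0.00734) in RAG1-/- against E2A-/- cells. In EBF-/- against E2A-/- cells Slc2a3 fell by 0.73 ± 0.18 (adjusted p = 0.0477), and Slc2a1 changed by -0.54 ± 0.17 without passing the test (adjusted p = 0.0903).

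Lactate and pyruvate cross the membrane through Slc16a1 (MCT1) and Slc16a3 (MCT4). Slc16a1 read 14.81 and 14.50 in RAG1-/- cells, 12.60 and 12.67 in EBF-/- cells, and 13.08 and 13.13 in E2A-/- cells. The RAG1-/- samples were the highest and no groups overlapped. It rose 4.05-fold in RAG1-/- against EBF-/- cells (log2 change 2.02 ± 0.10, adjusted p = 0.000715) and 2.92-fold against E2A-/- cells (1.55 ± 0.10, adjusted p = 0.000921). It fell in EBF-/- against E2A-/- cells by 0.47 ± 0.10 (adjusted p = 0.0329). Its 2 dimmer kept probes were also highest in RAG1-/- cells. Slc16a3 was dim, at 7.39 and 8.05 in RAG1-/- cells, 6.86 and 6.76 in EBF-/- cells, and 7.02 and 6.76 in E2A-/- cells, and rose by 0.91 ± 0.26 against EBF-/- cells (adjusted p = 0.0451), a call that passed in 6 of 16 alternatives.

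Hexokinases trap glucose in the cell as glucose 6-phosphate, and here the isoenzymes moved apart. Hk1, the widely expressed form, read 13.45 and 13.87 in RAG1-/- cells, 12.26 and 12.28 in EBF-/- cells, and 11.00 and 10.86 in E2A-/- cells. Hk2, the form known to be induced by growth signals and hypoxia, read 11.23 and 11.90 in RAG1-/- cells, 12.49 and 12.39 in EBF-/- cells, and 13.52 and 13.24 in E2A-/- cells. The 3 groups did not overlap for either gene, and their order for Hk2 was the reverse of that for Hk1. Hk1 rose 6.65-fold in RAG1-/- against E2A-/- cells (log2 change 2.73 ± 0.13, adjusted p = 0.000584), 2.62-fold against EBF-/- cells (1.39 ± 0.13, adjusted p = 0.0025), and 2.54-fold in EBF-/- against E2A-/- cells (1.34 ± 0.13, adjusted p = 0.00572). Hk2 fell by 1.81 ± 0.16 in RAG1-/- against E2A-/- cells (adjusted p = 0.00185), by 0.88 ± 0.16 against EBF-/- cells (adjusted p = 0.0134, and 0.0882 without EBF-/- replicate 2), and by 0.93 ± 0.16 in EBF-/- against E2A-/- cells (adjusted p = 0.0205). The other 3 kept Hk1 probes were, like the first, highest in RAG1-/- cells.

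Without E2A-/- replicate 1, the change of Hk1 in EBF-/- against E2A-/- cells was 1.32 (adjusted p = 0.032), and that of Hk2 was -0.99 and no longer passed (adjusted p = 0.08). Without RAG1-/- replicate 2, Hk1 changed by 2.55 and Hk2 by -2.06 in RAG1-/- against E2A-/- cells, both still called. Hk3, a hexokinase of myeloid cells, read 5.57 and 7.98 in RAG1-/- cells, 4.97 and 4.84 in EBF-/- cells, and 8.40 and 8.61 in E2A-/- cells. It was not well above background in either EBF-/- sample and stood at least 6.84-fold below its level in E2A-/- cells (adjusted p = 0.0309, and 0.117 without E2A-/- replicate 2). The 2 RAG1-/- samples were far apart for Hk3, replicate 2, whose summed myeloid signal was the higher but whose median myeloid marker was not, being the higher, and neither comparison with RAG1-/- cells passed the test. Without RAG1-/- replicate 2 the change against E2A-/- cells was -2.96 (adjusted p = 0.00821), with 1 RAG1-/- sample left that is assumed to vary like the other groups.

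Glucose 6-phosphate passes through Gpi1 and then phosphofructokinase, the committed step, which is built from subunits of Pfkl, Pfkm and Pfkp. Pfkp, the platelet type, read 10.58 and 10.73 in RAG1-/- cells, 8.68 and 8.37 in EBF-/- cells, and 9.30 and 9.56 in E2A-/- cells. Pfkm, the muscle type, read 10.40 and 10.72 in RAG1-/- cells, 12.01 and 12.21 in EBF-/- cells, and 11.81 and 12.09 in E2A-/- cells. RAG1-/- cells were the highest of the 3 groups for Pfkp and the lowest for Pfkm, with no overlap, while the EBF-/- and E2A-/- samples overlapped for Pfkm. Pfkp rose 4.37-fold in RAG1-/- against EBF-/- cells (log2 change 2.13 ± 0.18, adjusted p = 0.00205) and 2.33-fold against E2A-/- cells (1.22 ± 0.18, adjusted p = 0.00741). Pfkm fell by 1.55 ± 0.17 against EBF-/- cells (adjusted p = 0.00379) and by 1.39 ± 0.18 against E2A-/- cells (adjusted p = 0.0047).

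All 4 of those calls passed in all 17 alternatives. Pfkp fell by 0.91 ± 0.18 in EBF-/- against E2A-/- cells (adjusted p = 0.0308), and Pfkm changed there by 0.17 ± 0.18 (adjusted p = 0.555). A second Pfkp probe had the same order as the first, and another, dim one was slightly lower in RAG1-/- than in E2A-/- cells. Pfkl, the liver type, changed by -0.29 ± 0.30 in RAG1-/- against EBF-/- cells and by -0.20 ± 0.30 against E2A-/- cells and was called in none of the 3 comparisons. Gpi1, phosphoglucose isomerase, read 15.72 and 16.03 in RAG1-/- cells, 16.59 and 16.69 in EBF-/- cells, and 16.40 and 16.42 in E2A-/- cells. Both RAG1-/- samples were below all others, and it fell by 0.77 ± 0.13 against EBF-/- cells (adjusted p = 0.0107, and 0.0742 without EBF-/- replicate 2) and by 0.54 ± 0.13 against E2A-/- cells (adjusted p = 0.028, and 0.142 without E2A-/- replicate 2).

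The speed of phosphofructokinase is set by fructose 2,6-bisphosphate, which the bifunctional enzymes of Pfkfb3 and Pfkfb4 make and break down. Pfkfb3 read 12.93 and 12.79 in RAG1-/- cells, 11.77 and 11.82 in EBF-/- cells, and 12.24 and 12.31 in E2A-/- cells. Pfkfb4 read 9.63 and 9.32 in RAG1-/- cells, 11.26 and 11.14 in EBF-/- cells, and 11.28 and 11.31 in E2A-/- cells. The RAG1-/- samples were above all others for Pfkfb3 and below all others for Pfkfb4. Pfkfb3 rose by 1.07 ± 0.08 against EBF-/- cells (adjusted p = 0.00152) and by 0.58 ± 0.08 against E2A-/- cells (adjusted p = 0.00556, and 0.0621 without E2A-/- replicate 2). Pfkfb4 fell by 1.73 ± 0.14 against EBF-/- cells (adjusted p = 0.00181) and by 1.82 ± 0.14 against E2A-/- cells (adjusted p = 0.00137).

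Pfkfb3 fell in EBF-/- against E2A-/- cells by 0.48 ± 0.08 (adjusted p = 0.0185) and Pfkfb4 changed by -0.10 ± 0.14 (adjusted p = 0.673). Fbp1, which runs the committed step backwards in gluconeogenesis, read 7.66 and 9.18 in RAG1-/- cells, 6.07 and 5.97 in EBF-/- cells, and 7.51 and 7.72 in E2A-/- cells. The RAG1-/- samples enclosed those of E2A-/- cells, and only 1 EBF-/- sample was well above background. Fbp1 rose by 2.39 ± 0.48 in RAG1-/- against EBF-/- cells (adjusted p = 0.0182), and by 1.61 without RAG1-/- replicate 2 (adjusted p = 0.0231). The call was lost without EBF-/- replicate 1 (adjusted p = 0.108) or 2 (adjusted p = 0.0637).

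Aldolase splits the 6-carbon sugar. Aldoa read 15.21 and 16.21 in RAG1-/- cells, 16.68 and 16.82 in EBF-/- cells, and 17.26 and 17.43 in E2A-/- cells. Aldoc, known from brain, read 7.98 and 8.27 in RAG1-/- cells, 5.97 and 6.16 in EBF-/- cells, and 5.05 and 3.07 in E2A-/- cells. On these probes neither gene overlapped between groups, and the order was opposite. For Aldoc, only 1 EBF-/- and 1 E2A-/- sample was well above background. A second kept Aldoc probe was also highest in RAG1-/- cells, but its EBF-/- and E2A-/- samples overlapped. Their means differed by 0.09 on that probe, against 2.005 on the first, so the order of EBF-/- and E2A-/- cells for Aldoc is uncertain. Aldoa fell by 1.63 ± 0.32 in RAG1-/- against E2A-/- cells (adjusted p = 0.0167, and 0.0708 without E2A-/- replicate 2). Against EBF-/- cells it changed by -1.05 ± 0.32 without passing (adjusted p = 0.0582), and it passed without either RAG1-/- sample, at -1.62 without replicate 2 (adjusted p = 0.00104) and at -0.47 without replicate 1 (adjusted p = 0.0263), so its size rests on which sample is kept. Aldoc rose by 4.08 ± 0.62 (adjusted p = 0.00791), a size that was 1.72 to 5.03 over the alternatives and rests partly on E2A-/- replicate 2, which was not well above background.

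Lower glycolysis was mostly measured by bright probes. Tpi1, triose phosphate isomerase, read 14.38 and 14.65 in RAG1-/- cells, 15.07 and 15.27 in EBF-/- cells, and 15.22 and 15.25 in E2A-/- cells, and fell by 0.66 ± 0.13 against EBF-/- cells (adjusted p = 0.0173, and 0.113 without EBF-/- replicate 2) and by 0.72 ± 0.13 against E2A-/- cells (adjusted p = 0.0128, and 0.0696 without E2A-/- replicate 2). Pgam1, phosphoglycerate mutase, read 14.33 and 15.01 in RAG1-/- cells, 15.55 and 15.31 in EBF-/- cells, and 16.09 and 16.16 in E2A-/- cells. Its groups did not overlap, and it fell by 0.77 ± 0.19 against EBF-/- cells (adjusted p = 0.034, and 0.136 without EBF-/- replicate 1) and by 1.46 ± 0.19 against E2A-/- cells (adjusted p = 0.00541). Pgk1, phosphoglycerate kinase, lay between 15.38 and 15.88 in all 6 samples and changed by 0.04 ± 0.14, -0.10 ± 0.14 and -0.14 ± 0.14 in RAG1-/- against EBF-/-, RAG1-/- against E2A-/- and EBF-/- against E2A-/- cells, none of them called.

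The probe named Gapdh was dim, between 5.51 and 6.89, and no change of it passed the test. A second probe, chosen after its values were seen, carries the name LOC380687, has the Gapdh transcript in its accession list, lies at chr6:125127706-125127875 (mm8) and read 15.36 and 15.54 in RAG1-/- cells, 15.53 and 15.43 in EBF-/- cells, and 15.71 and 15.80 in E2A-/- cells. Near-identical Gapdh copies exist in the genome, so which transcripts that probe reads is uncertain.

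Enolase has 3 genes, Eno1 in most cells, Eno2 in neurons and Eno3 in muscle. Eno3 read 9.91 and 9.78 in RAG1-/- cells, 10.91 and 11.36 in EBF-/- cells, and 9.02 and 9.54 in E2A-/- cells. The EBF-/- samples were above all others, and no groups overlapped. Eno3 rose 3.63-fold in EBF-/- against E2A-/- cells (log2 change 1.86 ± 0.14, adjusted p = 0.00389), with 1.74 without E2A-/- replicate 1 (adjusted p = 0.02). It fell by 1.29 ± 0.14 in RAG1-/- against EBF-/- cells (adjusted p = 0.00365) and rose by 0.57 ± 0.14 against E2A-/- cells (adjusted p = 0.0326), a call that passed in 8 of 17 alternatives.

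Eno2 read 3.84 and 4.31 in RAG1-/- cells, 5.39 and 5.74 in EBF-/- cells, and 7.21 and 7.50 in E2A-/- cells. It was not well above background in either RAG1-/- sample and was at least 6.18-fold lower there than in E2A-/- cells (adjusted p = 0.00467). Relative to EBF-/- cells, Eno2 in RAG1-/- cells changed by -1.49 ± 0.41 (adjusted p = 0.0431), a call that passed in 8 of 16 alternatives. Only 1 of the 2 EBF-/- samples was well above background for Eno2, so the size of this change is uncertain. Eno1 read 10.49 and 10.96 in RAG1-/- cells, 10.07 and 10.41 in EBF-/- cells, and 11.07 and 11.32 in E2A-/- cells, and fell by 0.95 ± 0.23 in EBF-/- against E2A-/- cells (adjusted p = 0.0486).

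At the last steps of glycolysis, Pkm2, pyruvate kinase, whose current symbol is Pkm, read 13.78 and 13.96 in RAG1-/- cells, 13.33 and 13.64 in EBF-/- cells, and 14.15 and 14.11 in E2A-/- cells. It fell by 0.65 ± 0.14 in EBF-/- against E2A-/- cells (adjusted p = 0.0382), and which splice form the probe reads was not tested. Ldha, the lactate dehydrogenase subunit of glycolytic cells, read 15.93 and 16.62 in RAG1-/- cells, 16.23 and 15.90 in EBF-/- cells, and 16.98 and 16.79 in E2A-/- cells. Both E2A-/- samples were above the rest, and Ldha fell by 0.61 ± 0.14 in RAG1-/- (adjusted p = 0.0256, and 0.134 without E2A-/- replicate 2) and by 0.81 ± 0.14 in EBF-/- cells (adjusted p = 0.0212) against E2A-/- cells. Ldhb, the subunit of oxidative tissues, read 6.53 and 8.19 in RAG1-/- cells, 8.46 and 8.28 in EBF-/- cells, and 4.39 and 6.11 in E2A-/- cells, where it was not well above background, and passed in no comparison (adjusted p = 0.0605 in EBF-/- against E2A-/- cells).

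Pyruvate enters the citric acid cycle through pyruvate dehydrogenase, which the kinases Pdk1, Pdk2 and Pdk3 switch off. The subunit genes Pdha1 and Pdhb moved by at most 0.43 on the log2 scale in every comparison, and Pdha1 fell by 0.43 ± 0.08 in RAG1-/- against E2A-/- cells (adjusted p = 0.0136, and 0.137 without E2A-/- replicate 2). Pdk1, a known hypoxia target, read 10.10 and 11.11 in RAG1-/- cells, 11.66 and 11.49 in EBF-/- cells, and 11.37 and 11.24 in E2A-/- cells. Both RAG1-/- samples were the lowest, and Pdk1 fell by 0.98 ± 0.25 against EBF-/- cells (adjusted p = 0.0353, and 0.179 without EBF-/- replicate 2). Pdk2 and Pdk3 were called in no comparison, and second probes of Pdk1 and Pdk3 differed in sign from the first in RAG1-/- against E2A-/- cells.

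The pentose phosphate shunt makes NADPH and ribose from glucose 6-phosphate. G6pdx, its entry enzyme, read 11.73 and 11.88 in RAG1-/- cells, 12.63 and 12.67 in EBF-/- cells, and 13.19 and 13.45 in E2A-/- cells. The groups did not overlap, and G6pdx fell by 0.85 ± 0.12 in RAG1-/- against EBF-/- cells (adjusted p = 0.00718, and 0.0632 without EBF-/- replicate 1), by 1.52 ± 0.12 against E2A-/- cells (adjusted p = 0.00155), and by 0.67 ± 0.12 in EBF-/- against E2A-/- cells (adjusted p = 0.0246). Taldo1, transaldolase, fell by 0.56 ± 0.07 in RAG1-/- (adjusted p = 0.0048) and by 0.39 ± 0.07 in EBF-/- cells (adjusted p = 0.024) against E2A-/- cells. Tkt, transketolase, fell by 0.40 ± 0.10 in RAG1-/- cells against EBF-/- (adjusted p = 0.0332) and by 0.39 ± 0.10 against E2A-/- cells (adjusted p = 0.0353), calls that each passed in 7 of 17 alternatives, and Pgd, the second dehydrogenase, was called in none. Hif1a, the hypoxia-inducible factor, read 11.37 and 11.01 in RAG1-/- cells, 10.54 and 10.56 in EBF-/- cells, and 10.92 and 10.99 in E2A-/- cells, and rose by 0.64 ± 0.12 in RAG1-/- against EBF-/- cells (adjusted p = 0.0162, and 0.141 without EBF-/- replicate 2).

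Isoenzyme choice was described by the log2 difference between 2 probes within a sample. The difference itself depends on how each probe binds, so only its shift between genotypes is read, and no test was run. For Hk2 minus Hk1 it was -2.22 and -1.97 in RAG1-/- cells, 0.23 and 0.11 in EBF-/- cells, and 2.52 and 2.39 in E2A-/- cells. The mean shifted by -4.55 in RAG1-/- against E2A-/- cells and by -2.27 against EBF-/- cells, where the pooled SD within groups was 0.12. Pfkm minus Pfkp was -0.18 and -0.01 in RAG1-/- cells, 3.33 and 3.85 in EBF-/- cells, and 2.51 and 2.53 in E2A-/- cells, a shift of -3.68 in RAG1-/- against EBF-/- cells and of -2.62 against E2A-/- cells (pooled SD 0.22).

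Pfkfb4 minus Pfkfb3 was -3.29 and -3.47 in RAG1-/- cells, -0.50 and -0.67 in EBF-/- cells, and -0.96 and -0.99 in E2A-/- cells. Here EBF-/- and E2A-/- cells lay near each other and RAG1-/- cells apart, by -2.80 from EBF-/- and -2.41 from E2A-/- cells (pooled SD 0.10). Eno3 minus Eno1 was -0.58 and -1.18 in RAG1-/- cells, 0.85 and 0.95 in EBF-/- cells, and -2.05 and -1.78 in E2A-/- cells, so that EBF-/- cells leaned most to Eno3. Slc2a3 minus Slc2a1 overlapped between all groups, from -1.55 to -1.09, and any shift in their ratio was within the spread of replicates. Aldoc minus Aldoa shifted by 5.70 in RAG1-/- against E2A-/- cells (pooled SD 0.92), and Ldhb minus Ldha by 3.94 in EBF-/- against E2A-/- cells (pooled SD 0.88), both resting on probes near background in E2A-/- cells.

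**Figure D4:**
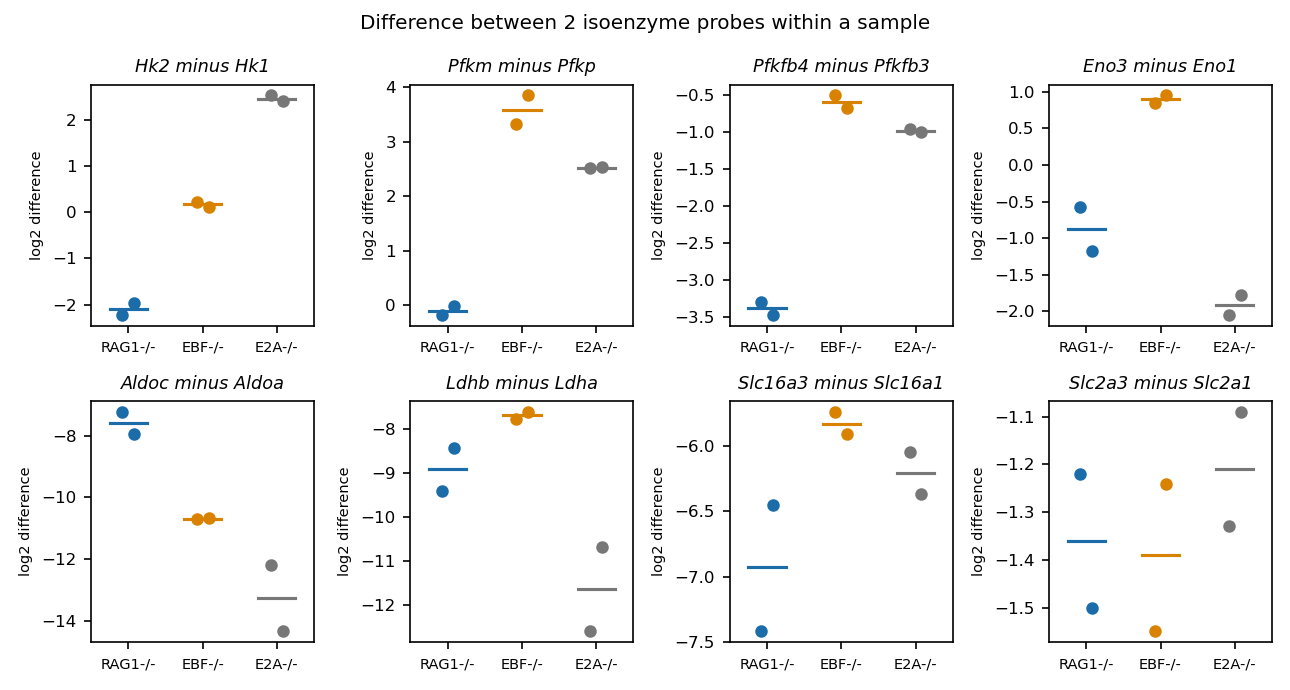
Log2 difference between the probes of 2 isoenzyme or transporter genes within a sample (vertical axis, scale differs by panel) in RAG1-/-, EBF-/- and E2A-/- cells, with a point per sample and a line at the mean. Hk2 minus Hk1 steps by more than 2 between neighbouring genotypes, RAG1-/- cells stand alone for Pfkm minus Pfkp and Pfkfb4 minus Pfkfb3, and Slc2a3 minus Slc2a1 overlaps.

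Further genes around the pathway were counted from 3 lists. The first held genes outside the 36 above, of sugar transport, glycolysis, pyruvate use, glycogen, glycerol and pentose metabolism. Of its 36 measured genes, 8 rose (22.2%, against 21.2% of all genes) and 13 fell (36.1%, against 22.6%) in RAG1-/- against EBF-/- cells. In RAG1-/- against E2A-/- cells 8 rose (22.2%, against 22.9%) and 11 fell (30.6%, against 23.1%), and in EBF-/- against E2A-/- cells 6 rose (16.7%, against 12.6%) and 7 fell (19.4%, against 11.6%). Rpia, which makes ribose 5-phosphate, rose by 2.43 ± 0.08 in RAG1-/- against EBF-/- cells (adjusted p = 0.000446) and by 2.74 ± 0.08 against E2A-/- cells (adjusted p = 0.000322), whereas G6pdx, at the entry of the same shunt, fell. Pygl, liver glycogen phosphorylase, was at least 8.64-fold higher in RAG1-/- than in E2A-/- cells (adjusted p = 0.00301) and at least 16.4-fold higher in EBF-/- than in E2A-/- cells (adjusted p = 0.00486). Gpd1, which links glycolysis to glycerol, fell by 3.54 ± 0.23 in RAG1-/- against EBF-/- cells (adjusted p = 0.0012).

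Another list held targets of the hypoxia factor outside glycolysis, together with Epas1, Arnt, Vhl and Hif1an, which are parts or regulators of that pathway. Of its 20 measured genes, 4 rose (20%) and 5 fell (25%) in RAG1-/- against EBF-/- cells, both near the shares of all genes. In RAG1-/- against E2A-/- cells 3 rose (15%, against 22.9% of all genes) and 7 fell (35%, against 23.1%), and in EBF-/- against E2A-/- cells 2 rose (10%, against 12.6%) and 6 fell (30%, against 11.6%). Ankrd37, a hypoxia-induced gene, fell by 2.46 ± 0.11 in EBF-/- against E2A-/- cells (adjusted p = 0.00212) and Hmox1, heme oxygenase, fell by 1.91 ± 0.11 (adjusted p = 0.00281). Vegfa, a growth factor for vessels, rose by 1.33 ± 0.25 in RAG1-/- against EBF-/- cells (adjusted p = 0.0151). Of 24 measured regulators of glucose use and of the lineage, 10 rose (41.7%, against 21.2% of all genes) and 4 fell (16.7%, against 22.6%) in RAG1-/- against EBF-/- cells. Against E2A-/- cells, 9 rose in RAG1-/- cells (37.5%, against 22.9%) and 3 fell (12.5%, against 23.1%), and in EBF-/- against E2A-/- cells 7 rose (29.2%, against 12.6%) and 1 fell (4.17%, against 11.6%). The list holds the deleted genes Ebf1 and Tcf3 (E2A) and the B-lineage factors Pax5 and Foxo1, so its counts are not independent of the genotypes compared: of these 4 genes, 4, 4 and 2 are among those that rose.

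Among these regulators Mycn, a MYC family factor, rose by 1.98 ± 0.15 in EBF-/- against E2A-/- cells (adjusted p = 0.00366). Foxo1, a target of insulin and AKT signals, rose by 5.57 ± 0.44 in RAG1-/- against EBF-/- cells (adjusted p = 0.00176). Of 8 proliferation markers, 7 rose in RAG1-/- against EBF-/- cells (87.5%, against 21.2% of all genes), with a median log2 change of 1.13. Against E2A-/- cells 8 rose (100%, against 22.9%), with a median of 1.01. The medians of the 36 glucose use genes were below 0 in both, and a link between these genes and the markers was not tested.

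Peaks were counted where their middle lay within 50 kb of the middle of the probe of a gene, in mm8, the build of both the array design and the peak lists. These probes usually lie near the 3' end of a transcript, so a start site farther off falls outside the window, and a peak in it may belong to a neighbouring gene. The score of a peak is the authors' value. The share of the 36 genes with a nearby E2A peak was 61.1% in RAG1-/- cells, where 57% of all 12700 genes with a position had one, and 41.7% in EBF-/- cells, where 37.9% had one. For EBF it was 13.9% against 12.9% of all genes, for FOXO1 13.9% against 15.4%, and for CTCF, which organises chromatin loops, 100% against 91.7%. The mock immunoprecipitation had no peak near any of the 36, and near 1.26% of all genes. The lists differ in length, with 11846 E2A peaks in RAG1-/- and 4531 in EBF-/- cells, so a different count in another list cannot be read as a change, and no test was run.

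Marks of active chromatin were near most of the genes. H3K4me3, found at active starts, was near 94.4% of the 36 in RAG1-/- cells, against 82.9% of all genes, and near 86.1% in EBF-/- cells, against 75.6%. H3K9/14ac was near 91.7% in RAG1-/- cells, against 82.6% of all genes, and near 88.9% in EBF-/- cells, against 83%. H3K4me1, found at enhancers and around starts, was near 91.7% in RAG1-/- cells, against 85.5% of all genes, and near 61.1% in EBF-/- cells, against 51%. H3K4me2 was near 97.2% in RAG1-/- cells, against 90.5%, and near 91.7% in EBF-/- cells, against 90.2%. The repressive mark H3K27me3 was near 8.33% in RAG1-/- cells, against 15.5% of all genes, and near 11.1% in EBF-/- cells, against 9.05%. It lay near Slc2a3, Slc16a3 and Taldo1 in RAG1-/- cells, with 4 peaks near Slc2a3, and near Slc16a3, Pgk1, Pdk2 and Pdk3 in EBF-/- cells.

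After E47-ER was activated in E2A-/- cells, 83.3% of the 36 had an E2A peak nearby at 1 h, against 76.8% of all genes, and 69.4% at 6 h, against 62.6%. In A12 cells at 6 h it was 77.8% against 64.4%. H3K4me1 was near 94.4% of the 36 in E2A-/- cells with E47-ER at 1 h, against 78.1% of all genes, near 66.7% at 6 h, against 64.9%, and near 86.1% with bHLH-ER at 6 h, against 77.2%. In A12 cells it was near 44.4% with E47-ER, against 49.3% of all genes, and near 52.8% with bHLH-ER, against 53.8%. The dot plot of genes with a nearby peak shows all 24 libraries, in which the share of the 36 genes lay above that of all genes in 19 of the 23 without the mock. With a window of 10 kb it did so in 8 of 23, so this excess depends on the window.

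**Figure D5:**
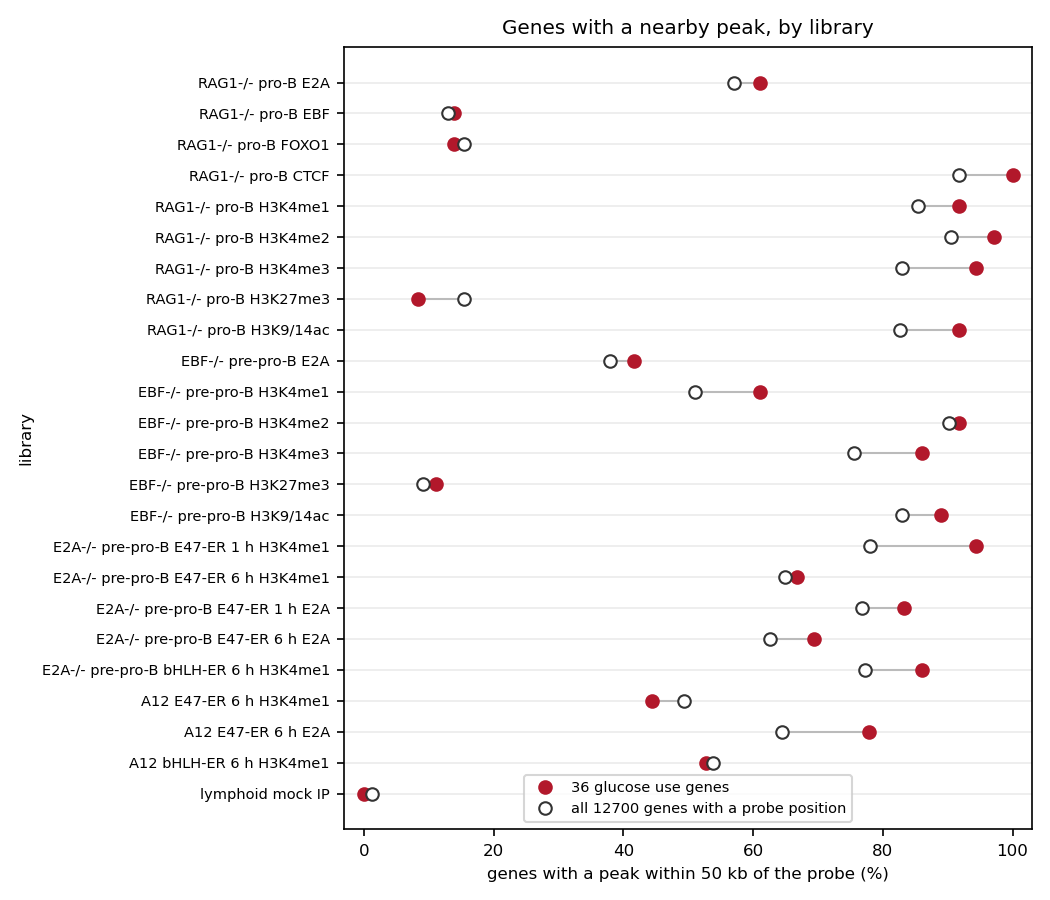
Share of genes with a peak within 50 kb of the probe (%, horizontal axis) for the 36 glucose use genes (filled) and all 12700 genes with a position (open), in each of 24 libraries. Both shares move together from library to library, with the longest list, CTCF, at 100% against 91.7% and the mock at 0% against 1.26%.

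Of the 7 genes that rose in RAG1-/- against EBF-/- cells, Hk1 and Fbp1 had 1 nearby H3K4me3 peak each in RAG1-/- cells and none in EBF-/- cells, while the other 5 (Slc16a1, Slc16a3, Pfkp, Pfkfb3 and Hif1a) had 1 or more in both. Near Hk1 there were 2 H3K9/14ac peaks in RAG1-/- cells, against 0 in EBF-/- cells, and near Fbp1 3, against 1. The H3K9/14ac list is the shorter one in RAG1-/- cells, with 13267 against 14331 peaks, and the H3K4me3 list the longer, with 13205 against 9064. Hk3 likewise had peaks of H3K4me1, H3K4me2, H3K4me3, H3K9/14ac and E2A nearby in RAG1-/- cells and none in EBF-/- cells, where its probe was not well above background. Some genes that fell in RAG1-/- against EBF-/- cells had H3K4me3 peaks nearby in both lists. Pfkm had 4 in RAG1-/- cells, against 3 in EBF-/- cells, Pfkfb4 had 4 against 3, and Eno3 had 6 against 5. Among all the glucose use genes examined, 31 had H3K4me3 peaks in both lists. There were more in RAG1-/- cells near 14 genes and more in EBF-/- cells near 0. With the RAG1-/- list the longer, these counts cannot show whether the genes that fell kept this mark.

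Some places recurred between libraries of bound factors. An E2A peak at chr13:6582727-6582926 lay within the span of the Pfkp probe in RAG1-/- cells, and E47-ER gave a peak at 0.2 kb from the probe at 1 h, with a score above 85.2% of that library's peaks, and at 0.22 kb at 6 h. The EBF-/- list had no E2A peak within 50 kb of Pfkp. At 10.2 kb upstream of the Eno3 probe, E2A peaks were listed in RAG1-/- cells (chr11:70468356-70468555), in E2A-/- cells with E47-ER at 1 h and 6 h, and in A12 cells, and none in EBF-/- cells, where Eno3 was highest. At 26.8 kb downstream of the Hk1 probe, peaks of RAG1-/- (chr10:61637672-61637871) and A12 cells overlapped, and at 23.1 kb upstream of the Fbp1 probe those of RAG1-/- (chr13:62897466-62897665) and A12 cells did too, the A12 peak with a score above 98% of its list.

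EBF and E2A peaks in RAG1-/- cells shared 2 places. The first lay 38.3 kb downstream of the Pfkm probe (E2A at chr15:97998482-97998681, EBF at chr15:97998549-97998748, the EBF score above 93.6% of its list), and the other lay 17.8 kb downstream of the Pgd probe, with E2A at chr4:147976104-147976303. Near Pfkfb4 an EBF peak lay 6.67 kb from the probe (chr9:108896118-108896317). FOXO1 shared 1 place with E2A, near Aldoa, at chr7:126568092-126568167, with a score above 95.6% of its list. Eno2 had 5 E2A peaks nearby in EBF-/- cells and 2 in RAG1-/- cells, the highest, at 19.4 kb, in both lists, and Eno2 and Tpi1 lie 50.4 kb apart, so that their windows share peaks. In all, 36 places with an E2A peak in RAG1-/- cells lay near the 36 genes, of which 3 were also in the EBF-/- list and 16 in a list of E47-ER cells, counting peaks with middles within 200 bases of the next as 1 place. The share of all E2A peaks that recur was not counted, so these counts cannot be read as particular to the 36 genes.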

How the data were processed

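RNA of 6 samples was measured on 4 two-colour Agilent arrays of 1 slide, scanned once. Per the file headers, the deposited intensity values were made with Agilent Feature Extraction 9.5.3.1, background-subtracted and dye-normalized. The channel that carried its RNA was used for each sample, and the unlabelled channels of 2 arrays were not used. Intensities were put on a log2 scale, control and outlier spots were removed, values were quantile normalized over the 6 samples and averaged per probe. Of 41099 probes with a value in all 6, 22132 passed a filter that asked for signal well above background in 2 of 2 samples of any group. Names were updated through RefSeq genes: 23374 of 41174 probes matched by accession, 6733 by symbol and 2919 by synonym. Well above background were 40.9% to 61.8% of spots per sample, and the number of arrays limits the precision.

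All samples were fitted together with limma 3.58.1 under R 4.3.3, using terms for genotype group and for dye, the array as a random block (correlation -0.024), a trended prior and Benjamini-Hochberg adjustment over 12750 genes at 0.05. The script was tested on 10 simulated data sets of RAG1-/- against EBF-/- cells with 12750 genes, where it called 28.7%, 64.2% and 86.8% of the genes changed by 1, 2 and 4 on the log2 scale, and 3.47% of its calls were false. Only a small part of the genes was changed there, and noise was drawn independently for each sample, without array or dye effects. In the real comparison 43.9% of genes were called, so these rates need not hold for the real calls. Where a sample was left out, the lone sample of its group was assumed to vary like the other groups. "At least N-fold" sets a bright group against the detection floor of a group not well above background. Replicate numbers were not taken as pairs. Deviations from group means correlated at 0.016 between RAG1-/- and EBF-/- cells, 0.168 between RAG1-/- and E2A-/- cells, and -0.403 between EBF-/- and E2A-/- cells. Array 1 held E2A-/- replicate 1 and RAG1-/- replicate 1. Array 2 held EBF-/- replicate 1 and E2A-/- replicate 2, where the fewest spots were well above background (44.2% and 40.9%). The part of shared arrays in these correlations was not tested.

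Peaks were called with HOMER on mm8, per the submitters' processing notes, and the deposited score of each peak is a whole number with a meaning the sources used here do not give. Promoters are RefSeq GRCm38.p6, and no coordinate was converted between builds. The 36 genes, the further lists and the isoenzyme pairs were chosen with earlier results of these data known. All 36 are named, and from each further list up to 4 called genes of each comparison could be named. The alternatives were other scaling, background correction, filters, probe summary, model terms, leaving out each sample, and other peak windows, scores and distances.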

Additional observations from a re-analysis of the deposited data

How the results depend on the processing

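For 36 genes of glucose use and 22 further named genes, 2919 values were recomputed under the alternatives: 2468 kept their direction and side of the threshold, 258 lost a call (153 of them by leaving out a sample), 145 gained one, and 0 called values changed sign. With 2 samples a group, each of the 14 calls in EBF-/- against E2A-/- cells was lost under at least 1 alternative, and signal near background limits Eno2, Aldoc, Ldhb, Hk3 and Pdk2.

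In EBF-/- against E2A-/- cells, 2 genes were higher (5.56%, against 12.6% of all genes), and 4 with the replicate block (11.1%, against 21.3%). Lower were 12 (33.3%, against 11.6%), 2 with no filter on dim probes (5.56%, against 4.3%) and 19 with the compared groups alone (52.8%, against 17.5%). With no trend in the prior 1 was lower (2.78%, against 7.5%), so the excess was absent there. In RAG1-/- against EBF-/- cells, 7 were higher (19.4%, against 21.2%) and 11 were lower (30.6%, against 22.6%). Lower were 7 with 75th percentile scaling (19.4%, against 21%) and 7 with no filter (19.4%, against 11.1%). In RAG1-/- against E2A-/- cells, 6 were higher (16.7%, against 22.9%), and 10 with the replicate block (27.8%, against 27.8%). There, 15 were lower (41.7%, against 23.1%). All these counts also moved when 1 sample was left out. Replicate numbers were not treated as pairs, and the replicate block is given only as an alternative. Median centring moved the median change of all genes to -0.206 in EBF-/- against E2A-/- cells and 0.164 in RAG1-/- against EBF-/- cells.

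With normexp background correction the isoenzyme shift in RAG1-/- against EBF-/- cells was -0.404 for Hk3 minus Hk1, -3.459 for Pfkm minus Pfkp, -2.611 for Pfkfb4 minus Pfkfb3 and -0.879 for Eno2 minus Eno1. That of Hk3 minus Hk1 turned from 0.483, and the cause was not tested. In RAG1-/- against E2A-/- cells it was -4.379 for Hk2 minus Hk1, -3.617 for Hk3 minus Hk1, -2.273 for Pfkfb4 minus Pfkfb3, 3.411 for Aldoc minus Aldoa, -0.788 for Eno2 minus Eno1, 1.405 for Ldhb minus Ldha, 0.91 for Pdk2 minus Pdk1 and -0.529 for Pdk3 minus Pdk2. In EBF-/- against E2A-/- cells it was -3.213 for Hk3 minus Hk1, 1.066 for Aldoc minus Aldoa, 2.149 for Ldhb minus Ldha, 0.191 for Pdk2 minus Pdk1, -0.918 for Pdk3 minus Pdk2 and 0.092 for Eno2 minus Eno1, which turned from -0.831, and the cause was not tested.

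With a window of 10 kb, the share of the 36 genes was above that of all genes in 8 of 23 libraries, against 19 with 50 kb, and under it, for example, for E2A in RAG1-/- cells (16.7%, against 20.4%) and in EBF-/- cells (8.33%, against 12.2%) and for H3K4me1 in RAG1-/- cells (36.1%, against 41.5%). Genes with a peak in RAG1-/- cells numbered 6 for E2A, 1 for EBF, 0 for FOXO1, 13 for H3K4me1, 18 for H3K4me2, 14 for H3K4me3, 0 for H3K27me3 and 15 for H3K9/14ac. In EBF-/- cells they numbered 3 for E2A, 5 for H3K4me1, 15 for H3K4me2, 12 for H3K4me3, 2 for H3K27me3 and 14 for H3K9/14ac. In E2A-/- cells they numbered 12 and 10 for E2A with E47-ER at 1 h and 6 h, 17 and 7 for H3K4me1 with E47-ER at 1 h and 6 h, and 14 with bHLH-ER. In A12 cells they numbered 7 for E2A, and for H3K4me1 5 with E47-ER and 6 with bHLH-ER. With 100 kb, H3K27me3 reached 8 in RAG1-/- and 7 in EBF-/- cells, FOXO1 9, and H3K4me1 in A12 cells with E47-ER 27. With the higher-scoring peaks of each list only, RAG1-/- cells had 1 for EBF, 3 for FOXO1, 21 for H3K4me1 and 1 for H3K27me3, EBF-/- cells had 5 for E2A and 2 for H3K27me3, E2A-/- cells with E47-ER at 6 h had 13 for E2A, and A12 cells had 9 with E47-ER and 12 with bHLH-ER for H3K4me1. Fewer genes with a shorter window or fewer peaks follow from the construction of these counts.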

Other observations

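Peaks of several antibodies met about 16.5 kb upstream of the Pgk1 probe, a place noticed after the peaks were seen. E47-ER at 1 h in E2A-/- cells gave an E2A peak there (chrX:102389535-102389734, mm8) whose score was above 100% (rounded) of the peaks of that list. E2A peaks were also listed there in EBF-/- cells, with a score above 89.8% of their list, and at 6 h and in A12 cells, both at the lowest score of their lists. The list of RAG1-/- cells had no E2A peak within 50 kb, and the only H3K27me3 peak near Pgk1, in EBF-/- cells, lay at the same place. Pgk1 RNA was called in none of the 3 comparisons. What gives rise to the peaks was not tested.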
